A study of Mus musculus with 18 samples.

Results

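The genes described here encode enzymes and a regulator of cholesterol synthesis: Dhcr7, Hmgcs1, Sqle, Idi1, Lss, Cyp51 and Insig1. They were found on the array by gene name among the probes that are not controls. The 7 genes had 16 probes of 41174, and all 16 were well above background in every channel. Each gene was represented by its brightest probe, which made them 7 of 25204 genes tested. The question asked of them was whether Dhcr7, a terminal enzyme of the pathway, moved with the enzymes before it in clones that had begun to differentiate.

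RNA was measured on 18 Agilent 2-colour mouse arrays, giving 36 channels of 5 kinds of RNA. Induced pluripotent stem cells (iPSC) labelled Dnmt3ab deficient, which by name lack the de novo DNA methyltransferases Dnmt3a and Dnmt3b, came as the 3 clones 8, A6 and B2 and filled 6 channels. The same 3 clones, labelled with some signs of differentiation, filled 12 further channels beside control iPSC lines 3, 4, 5 and 6, which were on 3 arrays each. The clones without that label are called undifferentiated here for short. The labels mark the differentiating channels as left out of the study's published statistics. Mouse embryonic fibroblasts (MEF) and V6.5, a mouse embryonic stem cell (ESC) line, filled 3 channels each beside the undifferentiated clones. The iPSC had been kept on irradiated MEF under ESC conditions and passaged 1 or 2 times on gelatin, so that some feeder RNA could remain. The labels do not give the alleles, how the control lines were made, or whether repeats of a line were separate cultures. The line was therefore taken as the replicate, with 3 clones and 4 control lines. The p-values of their main comparisons measure the spread between lines, and those against V6.5 ESC and MEF the spread over arrays.

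Cholesterol is built from acetyl-CoA through mevalonate, isoprenoid units, squalene and lanosterol. Hmgcs1 makes the precursor of mevalonate, Idi1 interconverts the isoprenoid building blocks, Sqle oxidises squalene and Lss closes it into lanosterol. Cyp51 removes a methyl group from lanosterol, and Dhcr7 reduces 7-dehydrocholesterol to cholesterol. When sterols run low, SREBP2 is cut from its membrane and switches these genes on, usually with NF-Y and Sp1 bound nearby. Insig1 is a target of the same factor and holds it back when sterols are plentiful.

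The promoters of members that behaved differently in these arrays are shown first, so that their letters can be set beside the expression values. RefSeq (GRCm38.p6) held the start of 6 of the 7 members, without Sqle, with 8 starts in all because Dhcr7 has 3. Each window is the 250 bases before the start, read 5′ to 3′ on the gene's strand. Capitals mark 5 motifs searched on both strands: TCACNCCAC and CACCCCAC, which are sterol-element letters and can overlap each other, CCAAT (NF-Y, shown as ATTGG on the other strand), GGGCGG (Sp1, shown as CCGCCC on the other strand) and CACGTG (E-box). The 4 genes are Hmgcs1 (chr13:119690101-119690350, plus strand), Cyp51 (chr5:4104698-4104947, minus strand), Dhcr7 at the first start (chr7:143822917-143823166, plus strand) and the third start (chr7:143829964-143830213, plus strand), and Insig1 (chr5:28071162-28071411, plus strand).
Hmgcs1: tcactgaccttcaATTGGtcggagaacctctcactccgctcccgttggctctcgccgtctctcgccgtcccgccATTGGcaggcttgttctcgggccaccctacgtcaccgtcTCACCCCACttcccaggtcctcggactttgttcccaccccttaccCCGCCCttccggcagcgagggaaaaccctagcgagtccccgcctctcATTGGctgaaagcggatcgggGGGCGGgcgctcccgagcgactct
Cyp51: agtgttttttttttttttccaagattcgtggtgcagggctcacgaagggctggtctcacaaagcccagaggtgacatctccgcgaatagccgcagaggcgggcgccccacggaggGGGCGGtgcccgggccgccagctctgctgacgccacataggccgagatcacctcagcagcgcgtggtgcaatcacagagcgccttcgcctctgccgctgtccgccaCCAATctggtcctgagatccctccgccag
Dhcr7, the first start: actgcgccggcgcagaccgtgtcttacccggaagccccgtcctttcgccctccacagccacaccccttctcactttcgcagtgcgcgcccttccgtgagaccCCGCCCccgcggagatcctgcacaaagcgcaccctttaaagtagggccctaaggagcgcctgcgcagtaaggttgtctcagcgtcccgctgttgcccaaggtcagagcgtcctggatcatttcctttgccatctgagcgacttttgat
Dhcr7, the third start: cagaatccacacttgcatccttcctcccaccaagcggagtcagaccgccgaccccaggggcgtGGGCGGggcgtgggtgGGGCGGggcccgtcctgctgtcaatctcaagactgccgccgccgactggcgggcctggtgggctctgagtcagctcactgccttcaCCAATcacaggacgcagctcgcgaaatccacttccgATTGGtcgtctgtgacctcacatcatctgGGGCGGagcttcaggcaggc
Insig1: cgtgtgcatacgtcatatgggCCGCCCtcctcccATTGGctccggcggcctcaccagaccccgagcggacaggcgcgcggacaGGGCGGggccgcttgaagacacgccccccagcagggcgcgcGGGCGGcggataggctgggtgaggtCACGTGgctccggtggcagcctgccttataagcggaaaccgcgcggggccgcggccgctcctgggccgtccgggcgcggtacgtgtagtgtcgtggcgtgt
The sterol-element letters TCACNCCAC were found in 1 member, Hmgcs1, at positions -137 to -129 from the start, in a window type where 1.05% of 32851 promoters hold them. CACCCCAC overlapped that match and was again found in Hmgcs1 alone, against 2.58% of all promoters. CCAAT lay in all 6 genes, with 3 copies in Hmgcs1 and 2 at the third start of Dhcr7, against 33.8% of promoters. GGGCGG also lay in all 6, against 32.7%. CACGTG lay in Insig1 and at the second start of Dhcr7, whose window is not printed, against 6.02%. The matches are letters only, and missing letters say nothing about a factor.

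The share of probes well above background was 69.7% to 92.6% per channel, and 0 spots were saturated. Among the 12 arrays with control lines 1 stood apart, that of clone 8 with line 5. Its channel labelled line 5 correlated at r = 0.951 to 0.952 with the other channels of line 5, while on the other 11 arrays the highest correlation of a control channel with its own line was 0.996 to 0.998. The SD of its log2 ratios was 0.215, against 0.247 to 0.464 on the others. Its channel labelled line 5 had a log2 Dnmt3a signal of 9.78, within the 9.12 to 9.88 of the clone channels elsewhere and below the 10.91 to 11.36 of the control channels. Its channel labelled clone 8 had 9.83, so that both were low in Dnmt3a. For Cubn, an endoderm gene, the channel labelled line 5 had 13.19, against 7.48 to 10.50 in the other control channels. The channel labelled clone 8 had a Cubn signal of 12.48, against 14.53 to 15.11 on the other arrays of that clone, and correlated with its own clone at 0.959 at most, against 0.997 or more as the highest value on every other array. The channel labelled line 5 thus went against its label in these genes, and that of clone 8 stood apart from its clone, and the members' main differences are given with all arrays and again without this array. Leaving it out was chosen after seeing the data.

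Dnmt3a, which the labels name as deficient, was at 9.12 to 9.58 in the differentiating clones and 8.98 to 9.86 in the undifferentiated clones, on the log2 signal scale. It was at 10.53 to 11.34 in the control lines, above all clones, and the difference of -1.68 ± 0.208 (SE) between differentiating clones and control lines had an adjusted p of 0.0256 in limma (-1.77 and 0.0021 without the array that stood apart). Dnmt3b lay at 13.17 to 13.34 in the differentiating clones and 12.41 to 13.99 in the control lines. Which part of either gene was removed is not given, so a probe outside it would check nothing.

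The differentiating clones had Dhcr7, Lss, Cyp51 and Insig1 signals above every control line, and Hmgcs1, Sqle and Idi1 signals inside the range of the control lines. With all arrays none of the 7 passed the adjusted test in limma, where 4.91% of all genes did in either direction and 2.33% as higher. At an unadjusted p under 0.05, 4 of 7 were higher, against 10.5% of all genes. The groups did not overlap for the same number, 4 of 7, against 9.82% of all genes. The median difference of the 7 was 0.38 on the log2 scale, and that of all genes was 0.00. When the array that stood apart was left out, Insig1 alone passed (1 of 7, with 8.63% of all genes called and 4.29% as higher), and the same 4 genes were above every control line, against 11.1% of all genes.

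**Figure D1:**
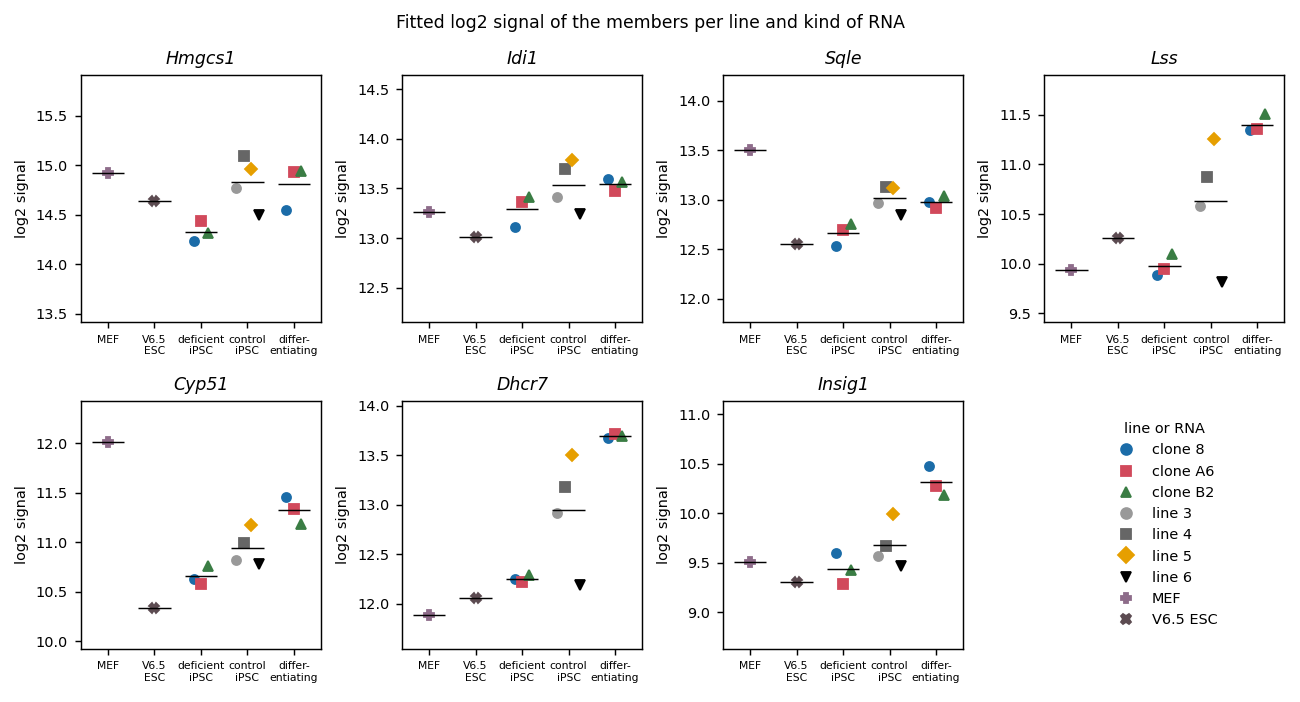
Log2 signal (y axis) of the 7 members, with a panel for each gene, in each line of the 5 kinds of RNA (x axis); points are 1 fitted value per line and state, and the black line is the mean of a kind. The 3 differentiating clones sit above all 4 control lines for Dhcr7, Lss, Cyp51 and Insig1, and line 6 is the lowest control line for every member.

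Dhcr7 had log2 signals of 13.68 in clone 8, 13.71 in clone A6 and 13.70 in clone B2 once these showed signs of differentiation. The control lines 3, 4, 5 and 6 had 12.91, 13.18, 13.50 and 12.19. The clones lay together at 13.70 ± 0.017 (SD, n = 3), while the control lines ranged widely at 12.95 ± 0.558 (SD, n = 4), and the groups did not overlap. The difference was 0.75 ± 0.289 (SE), a fold of 1.68 with a 95% interval of 0.06 to 1.44 on the log2 scale, and its adjusted p in limma was 0.203. Leaving out the array that stood apart put line 5 at 13.10 and the clones at 13.82, 13.61 and 13.57, so that the controls lay closer together and the clones further apart, and the difference was 0.79 ± 0.236 with an adjusted p of 0.0978. Line 6 widened the spread further: without both that array and line 6, the difference was 0.57 ± 0.0769 with an adjusted p of 0.0065, in a fit that called 3 of the 7 (Dhcr7, Lss and Insig1), with 17.2% of all genes called and 7.83% as higher.

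Lss, the cyclase that makes lanosterol, was at 11.35, 11.36 and 11.50 in clones 8, A6 and B2, and at 10.59, 10.87, 11.26 and 9.81 in lines 3 to 6. The difference of 0.77 ± 0.318 had an adjusted p of 0.234 in limma. It was 0.82 ± 0.268 (adjusted p 0.127) without the array that stood apart, and 0.57 ± 0.0889 (adjusted p 0.0102) without that array and line 6. As for Dhcr7, line 6 was lowest and line 5 highest among the controls with all arrays, and the clones were close together.

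Cyp51, the next enzyme, was at 11.46, 11.33 and 11.19 in clones 8, A6 and B2. The control lines 3 to 6 were at 10.82, 10.99, 11.18 and 10.78, so that clone B2 and line 5 nearly touched. The difference was 0.38 ± 0.112, with an adjusted p of 0.107 in limma, and 0.42 ± 0.112 (adjusted p 0.0715) without the array that stood apart.

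Insig1, the sterol-sensing brake, was at 10.48, 10.27 and 10.18 in the clones in the same order. It was at 9.57, 9.67, 9.99 and 9.47 in lines 3 to 6, each below the lowest clone. The difference was 0.63 ± 0.135, a fold of 1.55, and its adjusted p of 0.0513 in limma just missed the threshold of 0.05. Without the array that stood apart it rose by 0.68 ± 0.129, a fold of 1.60, with an adjusted p of 0.0277. It was also called with all of line 5 left out (0.74, adjusted p 0.0209) or all of line 6 left out (0.57, adjusted p 0.0396).

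Hmgcs1, at the entry to the pathway, was at 14.55, 14.93 and 14.94 in clones 8, A6 and B2, and at 14.77, 15.09, 14.96 and 14.50 in lines 3 to 6. Clone 8 lay near line 6, the lowest control line, and the groups overlapped, with a difference of -0.03 ± 0.165 and an adjusted p of 0.974 (-0.04 and 0.97 without the array that stood apart). Sqle was at 12.97, 12.92 and 13.04 in the clones and at 12.96, 13.13, 13.12 and 12.85 in the control lines. Its difference was -0.04 ± 0.0786 (adjusted p 0.889), and again -0.04 (0.888) without that array. Idi1 was at 13.59, 13.48 and 13.57 in the clones, and its control lines spanned 13.25 to 13.79. Its difference of 0.01 ± 0.134 (adjusted p 0.988) was 0.02 without that array and turned to -0.06 without that array and line 6.

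**Figure D2:**
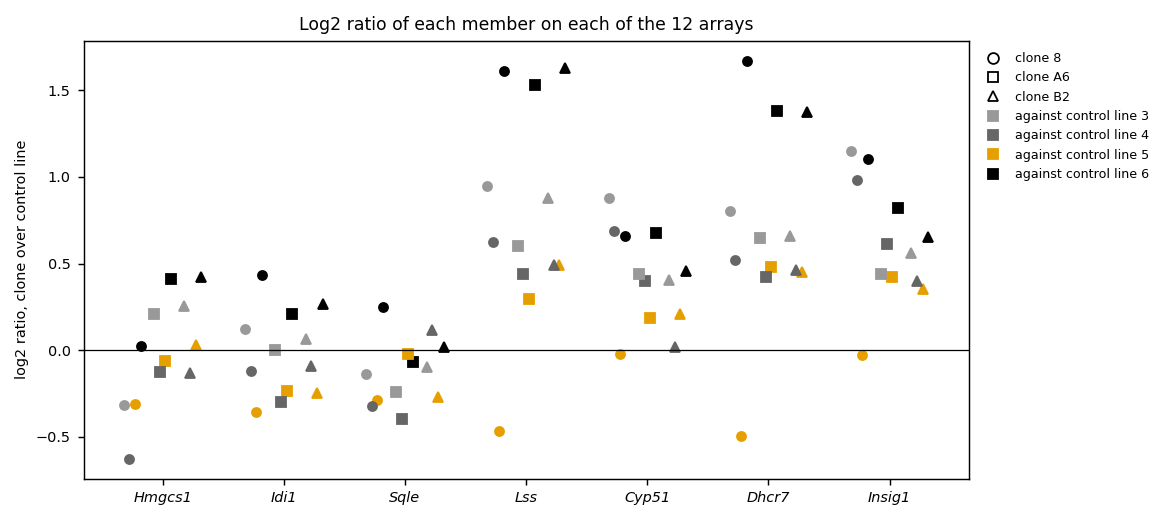
Log2 ratio of differentiating clone over control line (y axis) for each member (x axis) on each of the 12 arrays that hold both; the marker shape gives the clone and the colour the control line. For Dhcr7, Lss, Cyp51 and Insig1 11 of 12 arrays lie above 0, and the exception is each time clone 8 with line 5.

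Both kinds of RNA were on the same arrays, so each array gives a ratio of its own. For Dhcr7 the log2 ratio of clone over control was above 0 on 11 of 12 arrays, with a median of 0.58 and a range of -0.49 to 1.67. Against line 6 it was 1.67 for clone 8, 1.38 for A6 and 1.37 for B2. Against line 3 it was 0.80, 0.65 and 0.66, and against line 4 it was 0.52, 0.42 and 0.46. Against line 5 clones A6 and B2 gave 0.48 and 0.45, and the array that stood apart gave -0.49. For every clone the ratio against line 6 was the highest, since line 6 had the lowest Dhcr7 of the control lines. Lss, Cyp51 and Insig1 were also above 0 on 11 of 12 arrays, and their exceptions, at -0.46, -0.02 and -0.03, were on that same array. Hmgcs1 was above 0 on 6 of 12, Idi1 on 5 and Sqle on 3.

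Each clone's arrays were on a slide of their own, with all 4 control lines, and the slide carries the control replicate number. Within the slides, the mean log2 ratio of Dhcr7 was 0.63 for clone 8, 0.73 for A6 and 0.74 for B2. That of Insig1 was 0.80, 0.57 and 0.49, and that of Cyp51 was 0.55, 0.43 and 0.27, both highest in clone 8. With the replicate number as a block 4 of 7 members were called higher in limma, against 8.86% of all genes as higher: Dhcr7 by 0.76 ± 0.0342 (adjusted p 0.00991), Lss by 0.77 (0.012), Insig1 by 0.63 (0.0196) and Cyp51 by 0.37 (0.0371). Without the array that stood apart the block called Dhcr7 by 0.84 (adjusted p 0.0141) and Lss by 0.86 (0.0162), 2 of 7 against 8.05% of all genes as higher. That fit averages the control lines within a slide and so leaves out the spread between them.

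**Figure D3:**
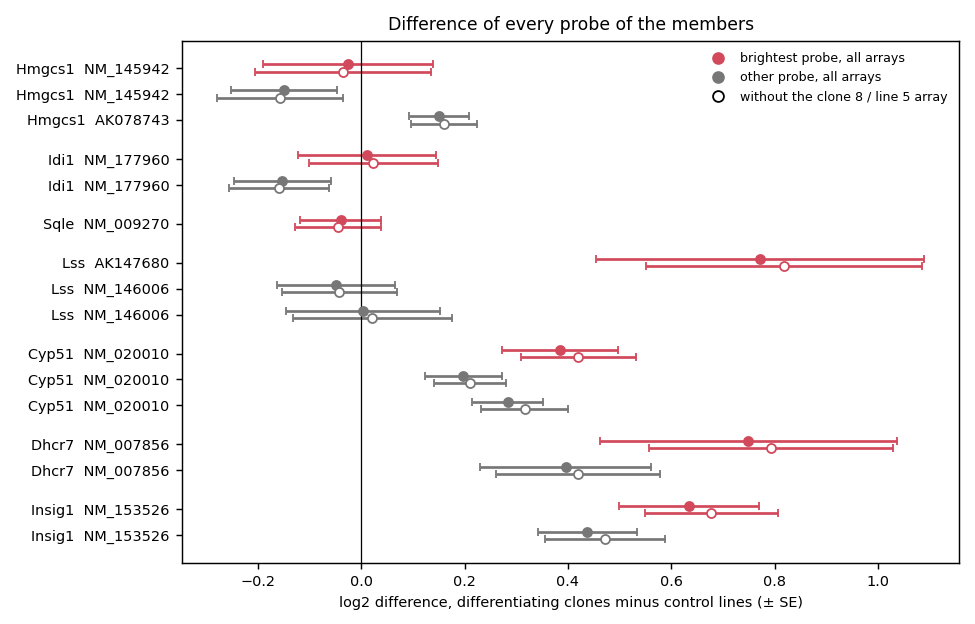
Log2 difference of differentiating clones over control lines (x axis, ± SE) for the 16 probes of the 7 members (y axis, gene and transcript accession); filled points use all arrays, open points leave out the array of clone 8 with line 5, and red marks the brightest probe of a gene. The Lss probes lie at 0.77, 0.00 and -0.05, while both Dhcr7 probes and both Insig1 probes lie above 0.

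The probes of a gene did not all give the same difference. The brighter Dhcr7 probe lies on chromosome 7 from 140275628 to 140275687 (mm7, the build of the array annotation) and gave 0.75, and the other gave 0.40. Both Insig1 probes were above 0, at 0.63 and 0.44, as were the 3 Cyp51 probes, at 0.38, 0.28 and 0.20. Lss differed from them: its brightest probe gave 0.77, and the other 2 gave 0.00 and -0.05.

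The brightest Lss probe is annotated to the cDNA AK147680, on chromosome 10 from 76212419 to 76212478, and its annotation does not list the RefSeq transcript NM_146006. The 2 other probes are annotated to NM_146006, and the nearer lies 3521 bases away, from 76208898 to 76208957. The higher Lss signal therefore rests on 1 probe of 3, and with the mean of all probes the difference was 0.24 (adjusted p 0.552). That probe was the brightest by little, with a mean log2 signal of 10.69 against 10.65 for the nearer NM_146006 probe. The nearer probe was at 10.57 to 10.95 in the differentiating clones and 10.39 to 10.94 in the control lines. The AK147680 probe was at 11.35 to 11.50 and 9.81 to 11.26. It was thus chosen partly through the group where it was high, and the member counts above include Lss through it. The Hmgcs1 probes gave -0.03, -0.15 and 0.15, and the Idi1 probes 0.01 and -0.15. In all, 11 of 16 probes pointed higher.

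Over the 7 lines of these 12 arrays, Dhcr7 and Lss levels had r = 0.996, with Lss read by its AK147680 probe. The NM_146006 probes of Lss had r = 0.577 and 0.399 to Dhcr7. The second Dhcr7 probe had r = 0.988 to the first. Cyp51 followed Dhcr7 at 0.886 and Insig1 at 0.880, while Idi1 had 0.676, Hmgcs1 0.473 and Sqle 0.466. Among the members themselves, Cyp51 and Insig1 had r = 0.982 and Idi1 and Sqle 0.929, while Hmgcs1 and Insig1 had 0.035. With the array that stood apart left out, r to Dhcr7 was 0.988 for Lss, 0.872 for Insig1 and 0.851 for Cyp51, and 0.551 for Idi1, 0.297 for Sqle and 0.288 for Hmgcs1. The order depends on the lines and probes taken. Over all 12 lines and references, r to Dhcr7 was 0.970 for Lss and 0.903 for Insig1, then 0.796 for Idi1, 0.532 for Hmgcs1, 0.345 for Cyp51 and 0.278 for Sqle. The Hmgcs1 probe of AK078743 had r = 0.926 over the 7 lines, above Cyp51 and Insig1. Over the 4 control lines alone, too few for a correlation to be given, Idi1 and Sqle were closer to Dhcr7 than Cyp51 and Insig1. The 7 lines hold both groups, so these values carry the group differences given above. They are descriptions over lines that share arrays, with no test.

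Of 25203 other genes, those most like Dhcr7 over the 7 lines were Smchd1 (r = 0.997), Lss (0.996), LOC243642 (0.994), Oard1, named AI314976 in the files (0.994), and Pmvk (0.993). Smchd1 is a chromatin protein of the inactive X, and Pmvk phosphorylates mevalonate phosphate in the same pathway. Pmvk was at 14.14 to 14.18 in the differentiating clones and 12.97 to 14.03 in the control lines, a difference of 0.54 ± 0.238 that did not pass (adjusted p 0.269, and 0.58 with 0.184 without the array that stood apart). Cyp51 came at rank 1066 and Insig1 at 1128, while Idi1 came at 3941, Hmgcs1 at 6647 and Sqle at 6727. With the array that stood apart left out, the leading genes were Ints8, Cenpo, Ddit3, Smchd1 and Ehd4, at 0.991 to 0.995. Pmvk then ranked 6 and Lss 16.

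In each differentiating clone Dhcr7 lay above the middle of its pathway. Relative to the control mean, Dhcr7 exceeded the median change of the other 6 members by 0.44 in clone 8, 0.52 in A6 and 0.57 in B2. In the undifferentiated clones it lay below that median, by -0.24, -0.35 and -0.39 in the same order. The same gap was 0.05, 0.09, 0.32 and -0.51 in control lines 3 to 6, so the undifferentiated clones lay inside the range of the control lines. V6.5 ESC had -0.47 and MEF -1.02. These gaps use the brighter Dhcr7 probe. The mean gap in the differentiating clones was 0.51 ± 0.0651 (SD, n = 3), 0.53 without the array that stood apart and 0.34 without line 6. In the undifferentiated clones it was -0.33 ± 0.0799 (SD, n = 3), and it moved to -0.26 without that array, -0.096 with processed signals, -0.16 with the mean of all probes, -0.22 without line 5 and -0.51 without line 6. Single members still exceeded Dhcr7: Insig1 in clone 8 (a change of 0.80 against 0.73) and Lss in clone B2 (0.87 against 0.75).

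**Figure D4:**
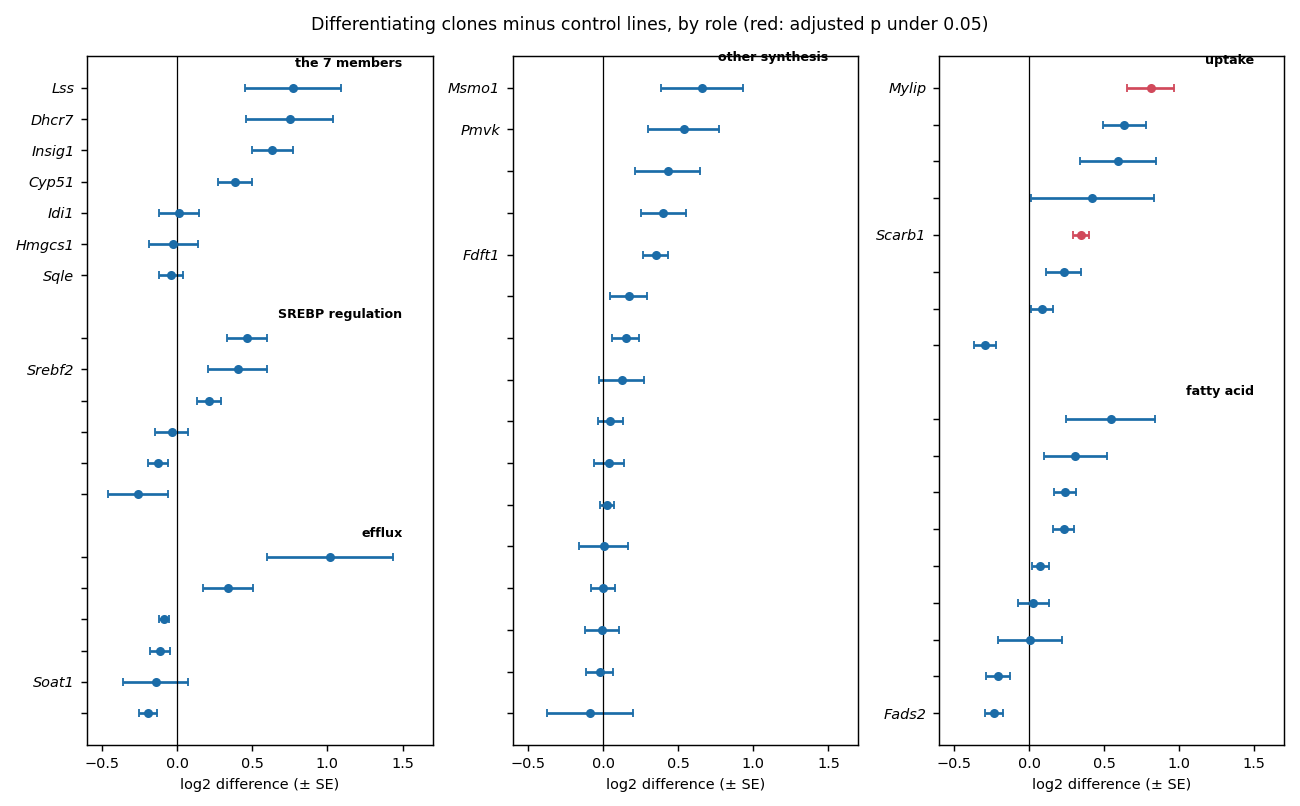
Log2 difference of differentiating clones over control lines (x axis, ± SE) for the 7 members and 45 other genes of cholesterol synthesis, uptake, regulation and efflux and of fatty acid synthesis (y axis, 1 gene per position, with names for the members and the genes described in the text); red marks an adjusted p under 0.05. The 2 red points are Scarb1 at 0.34 and Mylip at 0.81.

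Of 45 other genes of sterol and fatty acid handling, all measured, 2 were called higher and none lower in the differentiating clones with all arrays, against 4.91% of all genes called. At an unadjusted p under 0.05, 11 were higher and 5 lower, against 20.9% of all genes in either direction and 10.5% as higher. The median of the 45 was 0.12. Both called genes belong to uptake. Mylip, a sterol-regulated ubiquitin ligase, was at 10.59 to 11.11 in the clones and 9.95 to 10.38 in the control lines, and rose by 0.81 ± 0.156 (adjusted p 0.0427). Scarb1, the HDL receptor, was at 11.25 to 11.36 against 10.85 to 11.02, and rose by 0.34 ± 0.0539 (adjusted p 0.0301). Both were also called without the array that stood apart (adjusted p 0.0116 and 0.0134).

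In uptake 7 of 8 genes pointed higher, with a median of 0.38, and in synthesis 12 of 16, with a median of 0.09. The median of all genes was 0.00. At an unadjusted p under 0.05, 3 of the 8 uptake genes were higher, against 10.5% of all genes, and 1 lower. Without the array that stood apart 4 were higher, against 11% of all genes, and 1 lower.

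Among the enzymes of synthesis none of 16 was called with all arrays, and 3 were higher at an unadjusted p under 0.05, against 10.5% of all genes. Fdft1, which makes squalene, was at 12.72 to 12.90 in the clones and 12.25 to 12.52 in the control lines, with a difference of 0.35 ± 0.0827 (adjusted p 0.064). It rose by 0.38 (adjusted p 0.0371) without the array that stood apart. Msmo1, named Sc4mol in the files, which acts after Cyp51, was at 14.86 to 15.06 in the clones and 13.52 to 14.67 in the control lines, with a difference of 0.66 ± 0.272 (adjusted p 0.233, and 0.73 with 0.172 without the array that stood apart). It was chosen for its place in the pathway after its values were seen.

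Regulators and fatty acid genes were mixed. Of 6 regulators 3 pointed higher, and Srebf2, which encodes SREBP2, had 0.40 ± 0.198 (adjusted p 0.325). Of 9 fatty acid genes 7 pointed higher. Fads2, a fatty acid desaturase, was at 10.42 to 10.53 in the clones and 10.62 to 10.85 in the control lines, with -0.23 ± 0.0621 (adjusted p 0.0836). It fell by 0.25 (adjusted p 0.0461) without the array that stood apart, in a fit that called 4 of the 45 higher and 1 lower. Of 6 efflux genes 2 pointed higher. Srebf2 was named after its values were seen.

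Markers of other cell types also differed between the differentiating clones and the control lines, in different directions. Of 10 endoderm markers 5 were called higher in the differentiating clones and 9 were higher at an unadjusted p under 0.05, against 2.33% and 10.5% of all genes. Their summed log2 signal was 14.54 to 15.83 in the clones and 12.31 to 13.45 in the control lines, and without the array that stood apart 14.16 to 16.61 and 12.20 to 12.90. The brightest were Col4a1, with 2.10 (adjusted p 0.0506), and Cubn, with 3.80 ± 0.579 (adjusted p 0.0294). Cubn is an endocytic receptor of visceral endoderm. MEF had an endoderm sum of 14.88, inside the range of the differentiating clones, with Col4a1 at 14.43 and Cubn at 9.39. The sum is thus not particular to endoderm. No endoderm marker sum of a clone overlapped with one of a control line.

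Of 8 fibroblast markers 1 was called lower (2.58% of all genes), and 2 without the array that stood apart (4.34%). At an unadjusted p under 0.05, 7 were lower, against 20.9% of all genes in either direction. The sums were 14.97 to 15.52 in the clones and 15.59 to 16.65 in the control lines, against 20.01 in MEF. The brightest were Col1a2, with -1.06, and Col1a1, with -1.33, neither called. None of 8 pluripotency markers was called in limma (1 was lower at an unadjusted p under 0.05), with sums of 16.34 to 16.58 and 16.39 to 16.79, and the brightest, Klf4 and Pou5f1, had -0.42 and -0.12. In these bulk samples more cells of a type and more RNA per cell cannot be told apart. The part of the endoderm and feeder markers in the members' differences was not tested.

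**Figure D5:**
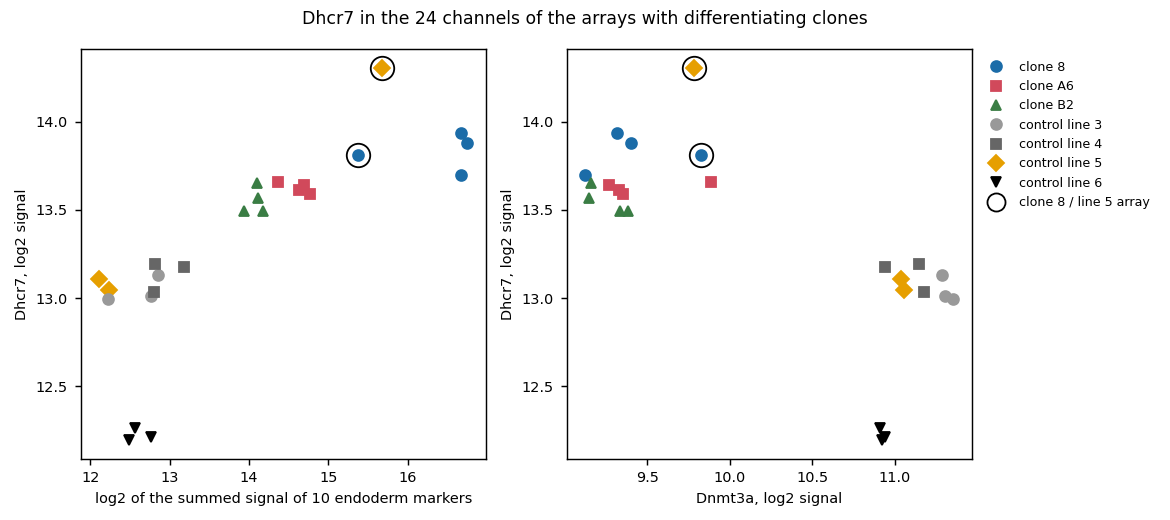
Log2 Dhcr7 signal (y axes) in each of the 24 channels of the 12 arrays that pair a differentiating clone with a control line, against the log2 summed signal of 10 endoderm markers (left x axis) and the log2 Dnmt3a signal (right x axis); rings mark the channels of the array of clone 8 with line 5. The ringed channel labelled line 5 has a Dhcr7 signal of 14.30 and an endoderm sum of 15.68, away from the other control channels.

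In the single channels the same array was visible for Dhcr7. The channel labelled line 5 on it had 14.30, while line 5 on the other slides had 13.11 and 13.05. Lss was 11.60 there against 10.99 and 10.92. Cyp51 had 10.99 against 11.02 and 11.01, and Insig1 9.82 against 9.82 and 9.76 in the channel labelled line 5. The channel labelled clone 8 on that array had 10.97 for Cyp51, against 11.59 to 11.72 on the other arrays of clone 8. For Insig1 it had 9.79 against 10.61 to 10.68. The ratios of Cyp51 and Insig1 near 0 on that array thus went with a low channel labelled clone 8, and the negative ratio of Dhcr7 with a high channel labelled line 5. The endoderm sum of that channel, 15.68, lay above the 12.11 to 13.18 of the other control channels.

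The comparison stated by the study sets the undifferentiated deficient clones against the control lines. All 7 members pointed lower in the clones, and 2 of 7 were called lower in limma, against 30.9% of all genes called lower and 46.2% called in either direction. The share of members was near that of all genes. Hmgcs1 was at 14.23, 14.44 and 14.32 in clones 8, A6 and B2, below every control line, and fell by 0.50 on the log2 scale (SE 0.141, adjusted p 0.026). Sqle was at 12.53, 12.69 and 12.76, and fell by 0.35 (SE 0.0898, adjusted p 0.0176). Neither was called without normalization between arrays (-0.28, adjusted p 0.101, and -0.064, adjusted p 0.522). The members' median was -0.35, and that of all genes -0.06. Of the 8 fibroblast markers 7 were called lower in the same comparison, among them Col1a1 with -1.96, and their sums were 14.60 to 14.70 against 15.59 to 16.65. Sqle had its highest level in MEF, at 13.50. Hmgcs1 was at 14.92 in MEF, below control lines 4 and 5, at 15.09 and 14.96. The part of the fibroblast markers in the differences of both genes was not tested.

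Dhcr7 was at 12.25, 12.22 and 12.30 in the undifferentiated clones, just above line 6 and below lines 3, 4 and 5, with a difference of -0.69 ± 0.287 (adjusted p 0.0905). Lss, at 9.88, 9.95 and 10.09, sat the same way, with -0.66 (adjusted p 0.133). The other Dhcr7 probe gave a smaller difference of -0.19 ± 0.167. Cyp51 had -0.29 (0.0596), Idi1 -0.24 (0.225) and Insig1 -0.24 (0.194). Without the array that stood apart Cyp51 also fell, by 0.30 (adjusted p 0.0134), for 3 of 7 called against 30.3% of all genes as lower. The calls rested on single lines. With clone 8 left out 0 of 7 were called, against 27.5% of all genes as lower, and with line 6 left out 5, against 34.9%. With line 3, 4 or 5 or clone A6 or B2 left out 1 was called, each time Sqle, against 24.7% to 27.8%. The undifferentiated clones and the control lines were scanned on different days and never shared an array, so the group cannot be told apart from the day of scanning. This comparison uses the same control lines as that of the differentiating clones.

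Within the 3 clones, 6 of 7 members rose from the undifferentiated to the differentiating state, against 33% of all genes called higher and 52.3% called in either direction. Dhcr7 went from 12.25 to 13.68 in clone 8, from 12.22 to 13.71 in A6 and from 12.30 to 13.70 in B2, a rise of 1.44 ± 0.0412 (fold 2.71, adjusted p 0.00405). That rise is of the brighter Dhcr7 probe, and the other probe rose by 0.59 ± 0.0493. Lss, on its AK147680 probe, rose by 1.43 ± 0.0387 (adjusted p 0.00405), and by 0.63 (0.00474) with the mean of all probes. Insig1 rose by 0.87 ± 0.0576 (0.00405). Cyp51 rose by 0.67 ± 0.0933 (0.00843), Hmgcs1 by 0.48 ± 0.0728 (0.0103) and Sqle by 0.32 ± 0.0587 (0.0163). Idi1 had 0.25 ± 0.0885 (0.0767). Without normalization between arrays 4 of 7 were called: Cyp51 had 0.23 (adjusted p 0.0815) and Sqle 0.026 (0.698), and Insig1 rose by 0.36, with the median of all genes at -0.44.

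The members' median was 0.67 and that of all genes 0.07. All 8 uptake genes were also called higher, as were 9 of 16 synthesis genes with 1 lower, 2 of 6 regulators with 1 lower, and 4 of 6 efflux genes with 1 lower. Of 10 endoderm markers 9 were called higher, against 33% of all genes. Of 8 pluripotency markers 5 were called lower, against 19.3% of all genes, among them Nanog with -1.59 and Pou5f1 with -0.40. Of 8 fibroblast markers 5 were called higher, while 2 pointed lower without a call. Fibroblast sums were 14.60 to 14.70 in the undifferentiated and 14.97 to 15.52 in the differentiating clones. Clone 8 already had an endoderm sum of 14.43 without the label of differentiation, above every control line, while A6 and B2 had 12.26 and 12.31. The part of these markers in the members' rises was not tested. Without the array that stood apart 6 of 7 were again called, against 29.8% of all genes as higher. Without clone A6 no member was called and 0% of all genes were. Here, too, state and scan day cannot be told apart, because each state was scanned on its own day.

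The undifferentiated clones were set directly against V6.5 ESC and MEF on 3 arrays each. Against V6.5 ESC none of the 7 was called in limma, or had an unadjusted p under 0.05, where 5.32% of all genes were called. The Dhcr7 log2 ratio was 0.04, 0.23 and 0.12 for clones 8, A6 and B2, and that of Cyp51 0.35, 0.33 and 0.49, with every clone above ESC. Hmgcs1 had -0.40, -0.20 and -0.27, with every clone below.

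Against MEF 3 of 7 were called lower, against 30% of all genes as lower and 58.1% in either direction. Cyp51 gave -1.44, -1.53 and -1.34 in the clones, and fell by 1.35 on the log2 scale (SE 0.154, adjusted p 9.13e-07), the furthest of the members. Sqle fell by 0.84 (SE 0.0886, adjusted p 3.5e-07) and Hmgcs1, on its brightest probe, by 0.58 (SE 0.179, adjusted p 0.00989). The other Hmgcs1 probes gave -0.15 ± 0.111 and 0.55 ± 0.112, so the probes differed in direction. In 2 of 11 alternatives Hmgcs1 was no longer called. Dhcr7, with ratios of 0.46, 0.32 and 0.53, had a fitted difference of 0.32 ± 0.314 (adjusted p 0.406). Each reference was a single RNA in a single dye, so its own spread was not measured and the p-values against it do not cover it. The error in these fits was taken over all 18 arrays, 12 of them with differentiating clones and control lines. It can thus be larger than the spread of the 3 ratios of a member. Dhcr7 was called higher than MEF in 1 of 11 alternatives (adjusted p 0.00254 in limma).

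Over the 5 kinds of RNA the mean log2 level of Dhcr7 was highest in the differentiating clones (13.70), then in the control lines (12.95), the undifferentiated clones (12.26), V6.5 ESC (12.06) and MEF (11.89). Lss, on its AK147680 probe, was also highest in the differentiating clones, at 11.40, and lowest in MEF, at 9.93. That MEF level was near the 9.97 of the undifferentiated clones. On the NM_146006 probes of Lss the undifferentiated clones were below MEF, with differences of -0.45 ± 0.171 and -0.33 ± 0.114 (SE). Cyp51 was instead highest in MEF, at 12.01, with 11.33 in the differentiating clones. Sqle, at 13.50, was also highest in MEF, as was the mean of Hmgcs1 on its brightest probe, at 14.92 against 14.83 in the control lines. Insig1 was highest in the differentiating clones, at 10.31, and Idi1 at 13.55 there and 13.54 in the control lines, which did not differ beyond their spread.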

How the data were processed

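The authors deposited scanner files of 18 2-colour arrays, with mean spot and local background intensity and dye-normalized processed intensity per the file headers (Feature Extraction 10.1.1.1, probe coordinates in mm7). They also deposited a table of log2 ratios whose scale, centring and direction are not stated, and which was used only as an alternative. The submitters' processing notes name limma without a version.

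Here intensity was corrected by normexp (offset 50), normalized by loess within arrays and Aquantile between them, and fitted per channel with dye (lmFit on whitened channels in place of lmscFit, which takes no missing values; intra-spot correlation 0.77) to give 1 log2 value per line and state (R 4.3.3, limma 3.58.1). The comparisons with V6.5 ESC and MEF were fitted on the log ratios of all 18 arrays, with dye. Because the fit draws on both channels of each array, 1 odd array shifts several lines. Control and outlier spots had weight 0. A probe was kept if 0.5 or more of the channels of any 1 kind of RNA had it well above background (36964 of 41174), and a gene took its brightest probe. Tests were limma's and two-sided, and p-values were adjusted by Benjamini-Hochberg over every gene tested (25204, or 25202 and 25037 where values were missing), called at 0.05. The dye estimate is shared by all lines, which the tests between lines do not carry. The number of arrays limits the precision.

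Members, lists and markers were chosen with earlier results of these data known. Named genes were the 7 members, the 6 other pathway genes with the smallest p, the 5 genes most like Dhcr7, the targeted genes and the 2 brightest markers of each list, with genes named outside this rule said so. Some pathway genes, including 2 of those 6, are not reported here. Alternatives were processed signals, normalization, filters, probe choice, dye, blocks, each line left out and the array of clone 8 with line 5 left out.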

Additional observations from a re-analysis of the deposited data

How the results depend on the processing

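Of 455 values of the members under the alternatives, 382 kept direction and side of the threshold, 20 were no longer called, 30 became called and 23 reversed. For differentiating clones against control lines, the number of members called was 1 with processed signals, 1 with the mean of all probes, 1 without a dye term, 4 with the replicate block, 4 with arrays as replicates and slide as a random block (28.1% of all genes called), 1 without the array of clone 8 with line 5, 2 with the replicate block without that array, and 3 without that array and line 6. Leaving out each line gave 0 to 1, against 0% to 13.8% of all genes called. For deficient clones against control lines the number called was 0 without normalization between arrays (77.8% of all genes called) and 6 without that array and line 6 (34.8% as lower). It was 0 (without clone 8, 27.5% as lower) to 5 (without line 6, 34.9%) when each line was left out. Within clones it was 4 without normalization between arrays (81.9% of all genes called). Leaving out each clone gave 0 (without A6) to 6, against 0% to 34.5% of all genes as higher. Against MEF it was 2 to 3.

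Some values reversed. Against control lines, Idi1 in differentiating clones (main 0.01) was -0.071 with the mean of all probes, -0.022 without a dye term, -0.0034 with the replicate block and again -0.0034 with the slide block, and -0.062 without that array and line 6, and ranged from -0.086 to 0.094 when each line was left out. Hmgcs1 there (main -0.03) ranged from -0.14 to 0.10. Without normalization between arrays, Idi1, Cyp51 and Insig1 in deficient clones were 0.032, 0.16 and 0.28, and Idi1 within clones was -0.023. Against V6.5 ESC, Sqle (main 0.11) was -0.0022 with processed signals, -0.048 without a dye term, -0.048 with the 3 arrays alone and -0.012 in the authors' deposited table, and Lss was 0.068 with the mean of all probes. Against MEF, Lss was -0.25 with the mean of all probes and ranged from -0.017 to 0.069 when each clone was left out, and Insig1 from -0.17 to 0.018. The cause was not tested.

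The same-numbered control samples deviated together at r = -0.0056 to 0.466, so the numbers were taken as shared slides only, and the block was kept as an alternative. Leaving out the normalization between arrays moved the all-gene median from -0.06 to 0.44 for deficient clones against control lines, and from 0.07 to -0.44 within clones. With 3 and 4 lines, the spread of the control lines limits the members' tests.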

Other observations

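Among the other sterol genes, Soat1, which esterifies cholesterol for storage and was singled out after its values were seen, had the lowest difference of the 45 in the undifferentiated clones against control lines. Its log2 signal was 10.29 to 10.74 in the undifferentiated clones, 11.83 to 12.73 in the differentiating clones and 12.14 to 12.44 in the control lines, with 10.30 in V6.5 ESC and 12.97 in MEF. The undifferentiated clones did not overlap with either of the other iPSC kinds. Soat1 fell by 1.77 on the log2 scale (SE 0.121, adjusted p 0.000217 in limma) against the control lines, and rose by 1.62 ± 0.206 (adjusted p 0.00719) within the clones. Between differentiating clones and control lines it had -0.14 ± 0.216. Without the array of clone 8 with line 5 these differences were -1.74, 1.61 and -0.13. As for the members, the undifferentiated clones were scanned on another day than both other iPSC kinds, while V6.5 ESC and MEF were scanned on theirs.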
